A study of Mus musculus with 6 samples.

Results

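The genes described here mark the cells that line blood vessels or encode the growth factors and receptors by which vessels sprout and mature. They were chosen by name from a list of 38 entries; 37 matched a gene identifier among the 48397 of the count tables, and 1 entry, Cldn5-none, matched none and is not analysed here. Polyadenylated RNA was sequenced from pancreatic islets of wild-type C57B6 mice, in which beta cells sit among other endocrine cells, capillaries, stroma and immune cells; the labels give the cell type as mixed. After a night of recovery the islets spent 24 h with recombinant mouse prolactin at 500 ng/mL (3 libraries) or with DMSO as the control (3 libraries). Nothing in the labels ties the replicates to separate mice or cultures, so the spread behind the p-values may be technical.

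Endothelial cells form the inner wall of vessels and are joined by proteins such as VE-cadherin. They receive VEGF through the receptors encoded by Kdr, Flt1 and Flt4, and angiopoietins through the receptor encoded by Tek, while ETS and SOX transcription factors maintain their gene programme. Islet capillaries are dense and fenestrated, and beta cells are a known source of VEGF-A.

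Levels are CPM, read counts per 1e+06 reads after TMM scaling of the library totals. Where genes are compared with each other, levels are TPM-like values. These are counts per exon length, scaled to sum to 1e+06 over all genes, without TMM scaling. Changes are log2 values, prolactin over control, given with a standard error (SE) or a 95% interval. A gene is called when its adjusted p in edgeR's quasi-likelihood test over the 23924 genes tested lies under 0.05. The libraries held 230833584 to 530296257 assigned reads, and all 37 genes passed the expression filter. Prolactin replicates 2 and 3 were closer to each other than any other replicate pair: the median chi-square per gene was 1.44, against 3.33 to 7.64 in the others, though more than sampling noise separated them (a mean of 6.61 per gene). Control replicate 3 had the highest level of acinar markers and the lowest of stromal markers. The number of calls and the 4 called genes are therefore also given without it and with prolactin replicates 2 and 3 summed.

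Promoter sequences from RefSeq (build GRCm38.p6) were at hand for 19 of the 37 genes, in 26 windows of 300 bases. They are shown because these genes share an endothelial programme, and were searched on both strands for TTCNNNGAA (the STAT motif), CCGGAA (an ETS motif), AACAGGAA (a FOX and ETS motif) and AACAAT (a SOX motif); no listed motif contains another. In that order, the motifs were in 0, 1, 2 and 3 of the 26 windows (0%, 3.85%, 7.69% and 11.5%), and in 8.3%, 14.9%, 2.65% and 10.7% of all 32851 windows. Where a motif was not found, its letters are not in the window, and nothing more. The 250 bases before the start site are printed for Cd34, the only called gene with a window, and for 3 genes with a match, all on the plus strand. Cd34 lies at chr1:194938571-194938820, Tek at chr4:94739039-94739288, Emcn at chr3:137340828-137341077 and Egfl7 at chr2:26580833-26581082. Capitals mark a SOX match in Tek, a FOX and ETS match and then a SOX match in Emcn, and a FOX and ETS match in Egfl7; matches on the minus strand show the complementary letters.
Cd34: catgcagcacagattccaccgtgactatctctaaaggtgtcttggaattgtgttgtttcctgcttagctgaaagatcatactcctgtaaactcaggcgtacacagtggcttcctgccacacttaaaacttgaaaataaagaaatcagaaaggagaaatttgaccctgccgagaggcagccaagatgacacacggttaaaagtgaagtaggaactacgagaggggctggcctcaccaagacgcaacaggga
Tek: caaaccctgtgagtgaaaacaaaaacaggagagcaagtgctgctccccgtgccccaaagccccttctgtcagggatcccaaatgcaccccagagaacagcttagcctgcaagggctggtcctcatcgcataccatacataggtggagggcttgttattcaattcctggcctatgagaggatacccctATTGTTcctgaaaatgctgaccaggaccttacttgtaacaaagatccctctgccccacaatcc
Emcn: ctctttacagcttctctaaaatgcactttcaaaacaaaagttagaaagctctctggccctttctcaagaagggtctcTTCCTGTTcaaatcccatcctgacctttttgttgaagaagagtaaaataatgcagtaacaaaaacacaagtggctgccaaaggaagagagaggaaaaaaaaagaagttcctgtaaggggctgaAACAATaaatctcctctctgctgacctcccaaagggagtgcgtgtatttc
Egfl7: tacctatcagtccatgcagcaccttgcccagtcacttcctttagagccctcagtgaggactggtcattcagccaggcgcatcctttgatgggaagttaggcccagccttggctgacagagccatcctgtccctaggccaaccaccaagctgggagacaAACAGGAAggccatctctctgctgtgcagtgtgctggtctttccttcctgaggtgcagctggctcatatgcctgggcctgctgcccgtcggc

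Transcripts of 4 of the 37 genes rose with prolactin: Vwf, Cd34, Pdgfb and Cd93, by 24.3% to 51.0%. None of the 37 was called lower (0 by edgeR, also at an unadjusted p under 0.05, and 0 in the authors' deposited table). Of all genes tested 0.652% were called higher and 0.104% lower, and of the genes with a mean of 1 CPM or more, which 36 of the 37 reached, 0.899% were called higher. The log2 change was positive in 35 of the 37 genes, against 50.1% of all genes and 46.7% of those at 1 CPM or more. Its median was 0.18, against 0.00 over all genes. At an unadjusted p under 0.05, 18 of the 37 were higher, where 7.78% of all genes were higher and 6.68% lower. Many of the genes are known from the same endothelial cells, and all were measured in the same libraries, so they are not separate observations. Not all are restricted to endothelium, Ece1 and Cd34 among them. In bulk RNA, more endothelial cells, more RNA per endothelial cell and RNA from other cells that carry these genes cannot be told apart.

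In 21 of the 37 genes every prolactin library lay above every control library, in 0 below, and 16 overlapped. Over all genes 11.3% lay above and 10.4% below, and 12.8% lay above among genes at 1 CPM or more. Among the controls, replicate 3 was the highest library for 24 genes, and replicate 1 the lowest for 18. Among the prolactin libraries, replicate 1 was the lowest for 20 genes and replicate 3 the highest for 16.

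How many genes were called depended on single libraries. Without control replicate 3, 14 of the 37 were called higher and the median log2 change was 0.23. With prolactin replicates 2 and 3 summed, 0 were called by edgeR and the median was 0.18. Leaving out prolactin replicate 2, prolactin replicate 3 or control replicate 2 also gave 0 calls. Leaving out prolactin replicate 1 gave 1 call, Vwf, and leaving out control replicate 1 gave 2, Cd34 and Vwf. Calls over all genes moved with the library left out as well, so these swings are not particular to the 37 genes. Over all genes 156 were called higher with every library. There were 86, 39 and 39 without prolactin replicates 1, 2 and 3 in turn, and 121 without control replicate 1. The closing section gives the range over all these fits. The 10 genes added without control replicate 3 were Icam2, Plvap, Robo4, Kdr, Flt1, Flt4, Tie1, Ptprb, Aplnr and Sox18. Their adjusted p ranged from 0.118 to 0.820 on leaving out any other library, and from 0.292 to 0.813 with prolactin replicates 2 and 3 summed. The authors' deposited table, which DESeq2 with its defaults gave back from the counts to within 3.87e-09 on the log2 scale, calls 13 of the 37 higher, where it calls 4.1% of its genes higher and 1.6% lower.

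**Figure D1:**
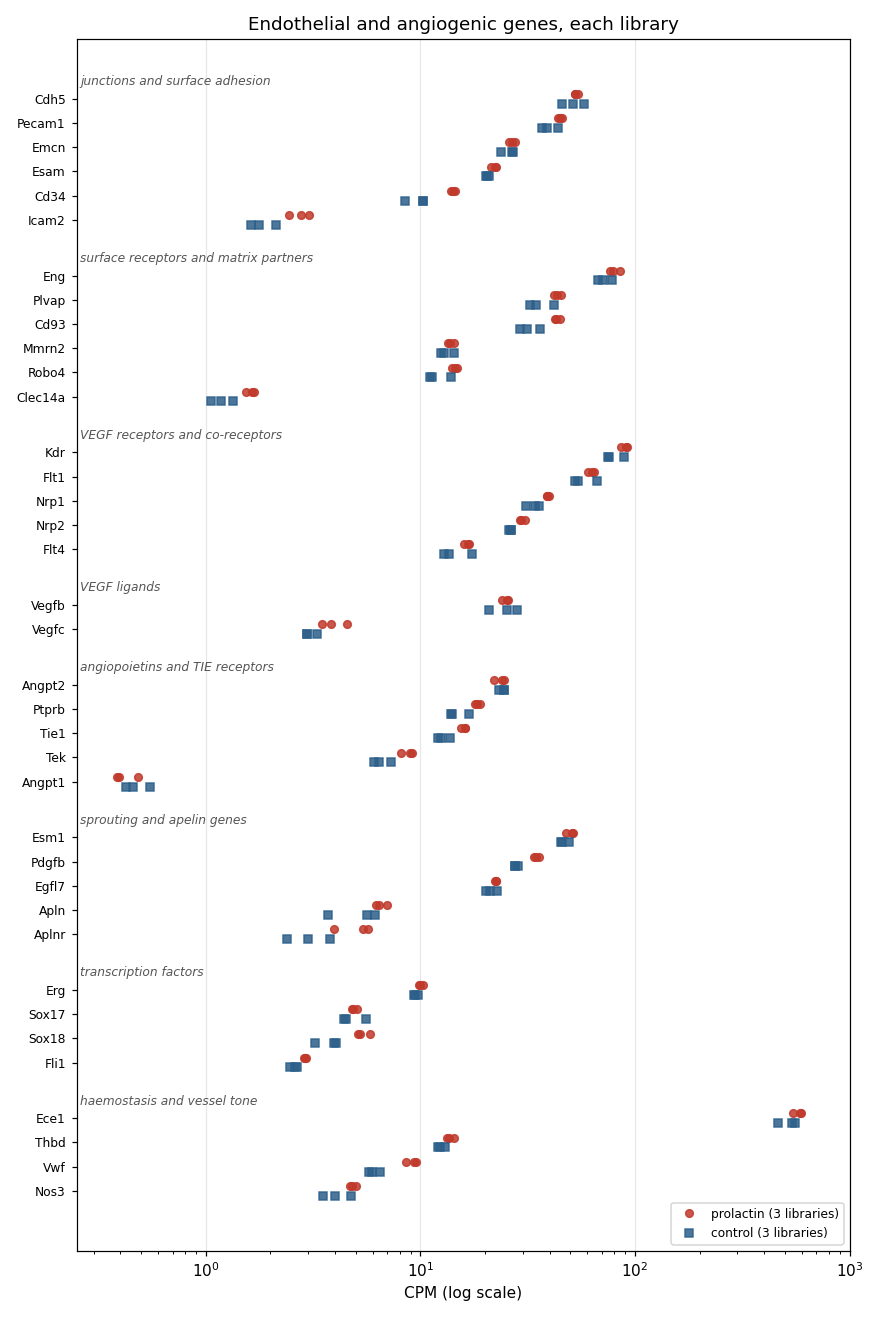
CPM of each of the 37 genes in each library on a log scale, grouped by role, with the 3 prolactin libraries as circles above the 3 control libraries as squares. Levels run from under 1 CPM for Angpt1 to over 400 CPM for Ece1, and for Vwf, Cd34, Pdgfb and Cd93 the circles lie to the right of the squares.

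Per exon length, Ece1, a membrane protease that makes active endothelins and is not restricted to endothelium, was the highest of the 37, at 267 ± 19.5 TPM in prolactin and 237 ± 24.6 TPM in control (SD, n = 3 each). Next came Esm1, at 58.8 ± 3.89 TPM in prolactin and 54.1 ± 4.52 TPM in control, Plvap, at 53.4 ± 3.17 TPM in prolactin and 43.8 ± 7.16 TPM in control, and Eng, at 48.8 ± 1.53 TPM in prolactin and 43.2 ± 5.19 TPM in control. In both groups the mean ± SD of Plvap overlaps with that of Esm1 and that of Eng, so the order of these neighbours is within the spread. Lowest stood Vwf, at 1.41 ± 0.108 TPM in prolactin and 0.915 ± 0.0854 TPM in control, Clec14a, at 0.881 ± 0.0255 TPM in prolactin and 0.633 ± 0.0495 TPM in control, and Angpt1, at 0.244 ± 0.0369 TPM in prolactin and 0.272 ± 0.0282 TPM in control. Vwf ranked 35 of 37 by level, and its change rests on 1620 to 3081 reads per library.

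Of 4 genes of haemostasis and vessel tone, 1 rose. Vwf (chromosome 6, 125546774 to 125686679, mm10, plus strand) encodes von Willebrand factor, which tethers platelets and is stored in endothelial granules. It had 8.60, 9.31 and 9.54 CPM in prolactin, against 5.74, 5.96 and 6.49 CPM in control. The groups did not overlap, and the log2 change was 0.59 (SE 0.0805, adjusted p = 0.0161). It stayed called without prolactin replicate 1 (adjusted p = 0.0277), control replicate 1 (0.0459) or control replicate 3 (0.0139). It was not called without prolactin replicate 2 (0.129), prolactin replicate 3 (0.125) or control replicate 2 (0.0722), nor with prolactin replicates 2 and 3 summed (0.127), while its log2 change stayed between 0.56 and 0.65 in these fits.

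Thbd, which encodes the anticoagulant receptor thrombomodulin, had 14.3, 13.6 and 13.3 CPM in prolactin, against 12.1, 12.3 and 13.1 CPM in control. Those libraries do not overlap, but the log2 change of 0.14 was not called (adjusted p = 0.364). Nos3, the endothelial nitric oxide synthase, had a log2 change of 0.24 (95% interval -0.024 to 0.51) that ran from 0.14 without control replicate 1 to 0.37 without control replicate 3. On the opposite strand, Gm15587 overlaps 25.2% of its exon bases and Atg9b 7.12%, which counting without strand cannot part from it. Summed over the libraries, Gm15587 had 140 counts, Atg9b 1478 and Nos3 7785. Ece1 had 542, 588 and 592 CPM in prolactin, against 463, 539.8 and 555 CPM in control, with overlap (log2 change 0.15, 95% interval -0.039 to 0.33, and 0.069 without control replicate 1).

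Of 6 genes of junctions and surface adhesion, 1 rose. Cd34 (chromosome 1, 194938819 to 194961279, plus strand) encodes a sialomucin of capillary endothelium, also known from blood progenitors and some stromal cells. It had 13.9, 14.3 and 14.5 CPM in prolactin, against 10.2, 10.2 and 8.45 CPM in control. The prolactin libraries were close together and above all controls, of which replicate 3 was the lowest; the log2 change was 0.56 (SE 0.0844, adjusted p = 0.0267). Without control replicate 3 the log2 change was 0.47 and still called (adjusted p = 0.0139), as it was without control replicate 1 (0.0431). It was not called without control replicate 2 (0.0722), on leaving out prolactin replicate 1, 2 or 3 (0.0685, 0.153 and 0.163), or with prolactin replicates 2 and 3 summed (0.167).

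Icam2, an adhesion molecule that resting endothelium displays to leukocytes, had 3.03, 2.78 and 2.44 CPM in prolactin, against 1.78, 1.62 and 2.12 CPM in control. No libraries overlapped, and the log2 change of 0.58 (95% interval 0.27 to 0.89) was not called (adjusted p = 0.105), though it was without control replicate 3 (0.0424) and in the authors' deposited table (0.00108). Cdh5, which encodes VE-cadherin, had 54.4, 52.3 and 52.7 CPM in prolactin, against 51.3, 45.8 and 57.7 CPM in control. The controls lay on both sides of the prolactin libraries (log2 change 0.044, 95% interval -0.13 to 0.22).

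Pecam1, the junction receptor CD31, had 43.7, 44.6 and 45.5 CPM in prolactin, against 43.9, 36.8 and 39.0 CPM in control. Control replicate 1 lay among the prolactin libraries (log2 change 0.16, adjusted p = 0.323, and 0.10 on the log2 scale without control replicate 2). Emcn, the sialoglycoprotein endomucin of capillaries and veins, overlapped as well (log2 change 0.050, 95% interval -0.10 to 0.20). Esam, an adhesion molecule of endothelial tight junctions, did not overlap, but its log2 change of 0.10 (95% interval -0.020 to 0.22) was not called.

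Of 6 surface receptors and matrix partners, 1 rose. Cd93 (chromosome 2, 148436640 to 148443563, minus strand) encodes a lectin-like receptor that takes part in endothelial adhesion and sprouting. It had 42.3, 43.0 and 44.6 CPM in prolactin, against 31.5, 29.1 and 36.0 CPM in control. No libraries overlapped, and control replicate 3 was the closest to the prolactin libraries. The log2 change of 0.43 (SE 0.0770) lay just inside the threshold (adjusted p = 0.0487). Without control replicate 3 it was 0.52 (adjusted p = 0.00901); without any other single library it was not called (adjusted p from 0.101 to 0.222), nor with prolactin replicates 2 and 3 summed (0.225), upper-quartile scaling (0.0525) or a filter of 1 CPM in 3 libraries (0.0520).

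CD93 and CLEC14A both bind multimerin 2, the matrix protein encoded by Mmrn2. Clec14a had 1.67, 1.54 and 1.65 CPM in prolactin, against 1.18, 1.34 and 1.05 CPM in control, without overlap (log2 change 0.45, 95% interval 0.15 to 0.75, adjusted p = 0.174, and 0.0344 in the authors' deposited table). Mmrn2 overlapped (log2 change 0.065, 95% interval -0.10 to 0.23). Plvap, which forms the diaphragms of fenestrae, had 42.0, 43.5 and 45.4 CPM in prolactin, against 32.4, 34.7 and 41.8 CPM in control. Control replicate 3 lay just under the lowest prolactin library, and the log2 change of 0.27 (adjusted p = 0.222) was 0.38 without it (adjusted p = 0.0281). Robo4, an endothelial guidance receptor that stabilises vessels, differed by 0.26 on the log2 scale, which was not called (adjusted p = 0.232); the value was 0.37 without control replicate 3 (adjusted p = 0.0321). Eng, the TGF-beta family co-receptor endoglin, had 85.4, 76.5 and 78.9 CPM in prolactin, against 70.6, 67.0 and 78.5 CPM in control, with overlap (log2 change 0.16, 95% interval -0.0046 to 0.32).

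**Figure D2:**
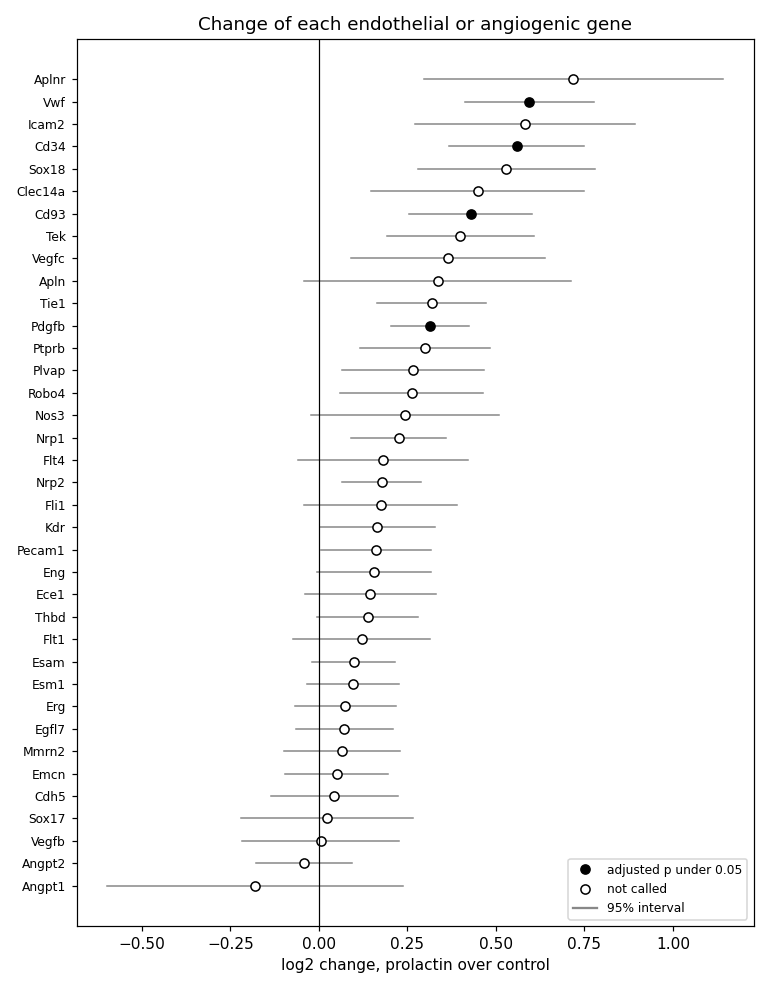
Log2 change of prolactin over control for each of the 37 genes, with 95% intervals from the edgeR fit. The 4 called genes, Vwf, Cd34, Pdgfb and Cd93, are marked, and the points of Angpt2 and Angpt1 alone lie below 0.

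Of 5 VEGF receptors and co-receptors, 0 were called by edgeR (3 were higher at an unadjusted p under 0.05), and the authors' deposited table calls 1, Nrp1 (adjusted p = 0.0456). Kdr, the main signalling receptor for VEGF-A, had 91.7, 85.8 and 91.1 CPM in prolactin, against 75.1, 75.9 and 88.6 CPM in control. Control replicate 3 lay among the prolactin libraries and the other controls below them; the log2 change of 0.17 (adjusted p = 0.339) was 0.25 without that library (adjusted p = 0.0464). Flt1, a receptor that also traps VEGF, had a log2 change of 0.12 (adjusted p = 0.576). It was 0.059 without control replicate 1 (adjusted p = 0.814), 0.075 without control replicate 2 (0.778) and 0.23 without control replicate 3 (0.0495). Flt4, the receptor for VEGF-C, was not called either (log2 change 0.18, adjusted p = 0.482), with 0.13 (0.681), 0.095 (0.737) and 0.32 (0.0423) without control replicates 1, 2 and 3 in turn. The neuropilin genes Nrp1 and Nrp2, whose products are co-receptors for VEGFs and semaphorins, did not overlap between the groups. Nrp1 had 39.1, 39.6 and 39.0 CPM in prolactin, against 35.5, 34.1 and 31.1 CPM in control (log2 change 0.22, adjusted p = 0.138). Nrp2 had 30.6, 29.2 and 29.3 CPM in prolactin, against 26.0, 26.5 and 26.3 CPM in control (log2 change 0.18, adjusted p = 0.153).

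Of the 2 VEGF ligands, 0 were called by edgeR (1 was higher at an unadjusted p under 0.05), and the authors' deposited table calls 1, Vegfc (adjusted p = 0.0464). Vegfc, the lymphatic growth factor that signals through Flt4, had 4.57, 3.46 and 3.82 CPM in prolactin, against 3.29, 2.96 and 2.95 CPM in control, without overlap (log2 change 0.36, 95% interval 0.089 to 0.64, adjusted p = 0.222). Vegfb had 24.1, 25.6 and 25.2 CPM in prolactin, against 21.0, 25.5 and 28.3 CPM in control, with wide overlap (log2 change 0.0046, 95% interval -0.22 to 0.23).

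Of 5 genes of the angiopoietin and TIE system, 0 were called by edgeR (3 were higher and 0 lower when p was not adjusted), and the authors' deposited table calls 3 higher: Tek, Tie1 and Ptprb. Tek, the angiopoietin receptor TIE2, had 9.16, 8.08 and 8.91 CPM in prolactin, against 7.29, 6.08 and 6.44 CPM in control (log2 change 0.40, 95% interval 0.19 to 0.61, adjusted p = 0.0959). Its partner Tie1 had 16.1, 16.2 and 15.5 CPM in prolactin, against 12.5, 12.1 and 13.8 CPM in control (log2 change 0.32, 95% interval 0.16 to 0.47, adjusted p = 0.0794). Ptprb, the phosphatase VE-PTP that acts on TIE2, had 18.3, 17.9 and 18.9 CPM in prolactin, against 14.001, 13.9 and 16.8 CPM in control (log2 change 0.30, adjusted p = 0.149). None of these 3 overlapped between the groups, and without control replicate 3 edgeR called Tie1 (adjusted p = 0.0277) and Ptprb (0.0228).

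The ligands overlapped between the groups. Angpt2, which can oppose TIE2 signalling, had 21.96, 23.9 and 24.5 CPM in prolactin, against 24.6, 24.5 and 23.3 CPM in control (log2 change -0.041, 95% interval -0.18 to 0.094). Angpt1, the activating ligand, was scarce, with 91 to 228 reads a library. It had 0.393, 0.486 and 0.385 CPM in prolactin, against 0.425, 0.552 and 0.460 CPM in control (log2 change -0.18, 95% interval -0.60 to 0.24, -0.30 without prolactin replicate 2 and -0.069 without control replicate 2). The difference in change between receptors and ligands was not tested.

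Of 5 sprouting and apelin genes, 1 rose. Pdgfb (chromosome 15, 79995900 to 80014808, minus strand) encodes the growth factor by which endothelium recruits pericytes. It had 33.9, 35.6 and 34.7 CPM in prolactin, against 27.6, 28.6 and 27.6 CPM in control. Both groups were tight and did not overlap, and the change was the smallest of the 4 called, 0.31 on the log2 scale (SE 0.0489, adjusted p = 0.0301). Without a single library it lay between 0.30 and 0.33, called without control replicate 3 (adjusted p = 0.0321) and not in the other 5 fits (adjusted p from 0.0643 to 0.215), nor with prolactin replicates 2 and 3 summed (0.205).

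Aplnr, the apelin receptor of sprouting and venous endothelium, had the largest log2 change of the 37, 0.72 (95% interval 0.30 to 1.14). It had 3.97, 5.40 and 5.69 CPM in prolactin, against 2.39, 2.99 and 3.79 CPM in control; the lowest prolactin and the highest control library nearly met, and it was not called (adjusted p = 0.134, 0.0484 without control replicate 3, 0.0104 with the replicate number as a block and 6.49e-04 in the authors' deposited table). Its ligand Apln had 6.96, 6.39 and 6.20 CPM in prolactin, against 5.65, 3.70 and 6.13 CPM in control (log2 change 0.34, 95% interval -0.042 to 0.71, and 0.14 without control replicate 2, its lowest library). Esm1, the tip-cell proteoglycan endocan, had 47.6, 51.5 and 50.8 CPM in prolactin, against 45.4, 45.5 and 49.4 CPM in control, with overlap (log2 change 0.10). Egfl7, a secreted endothelial protein whose gene hosts miR-126, overlapped too (log2 change 0.072).

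**Figure D3:**
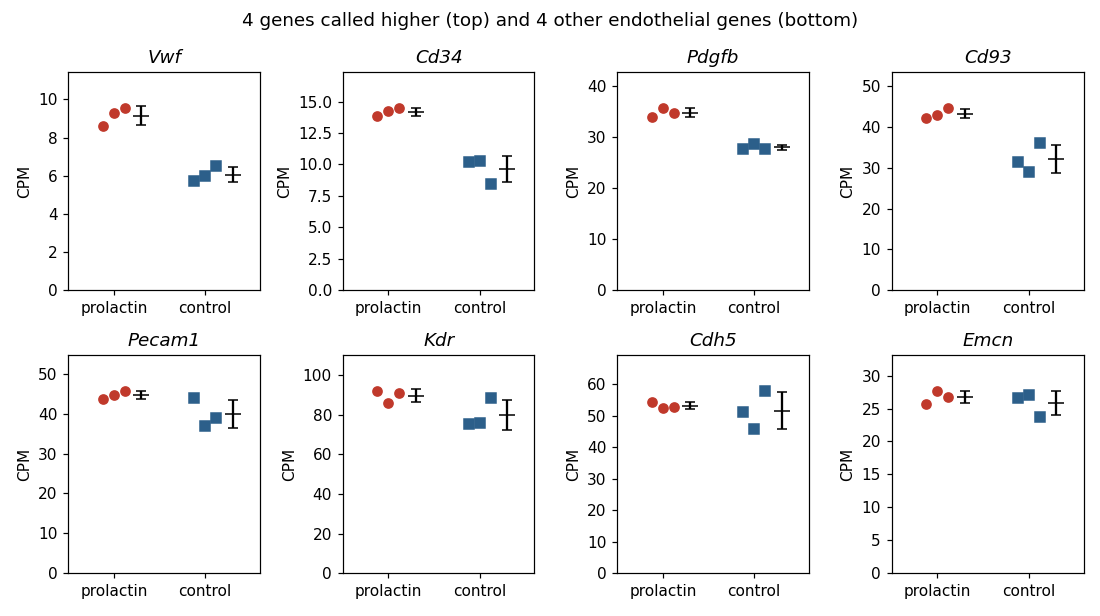
CPM in each library for the 4 called genes (top row) and for Pecam1, Kdr, Cdh5 and Emcn (bottom row), with mean and SD (n = 3 each) and axes from 0. The prolactin points lie above all control points in the top row and overlap with them in the bottom row. The bottom row does not stand for all uncalled genes. Of the 37 genes, 21 lay above control without overlap, among them the uncalled Tek, Tie1, Esam and Erg.

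Of 4 endothelial transcription factors, 0 were called by edgeR (1 was higher at an unadjusted p under 0.05), and the authors' deposited table calls 1, Sox18 (adjusted p = 2.22e-04). Sox18, a factor of vessel and lymphatic development, had 5.12, 5.24 and 5.82 CPM in prolactin, against 3.24, 3.95 and 4.04 CPM in control. No libraries overlapped, and the log2 change was 0.53 (95% interval 0.28 to 0.78, adjusted p = 0.0756, and 0.0471 without control replicate 3). Sox17, a factor of arterial identity, had 4.85, 4.80 and 5.06 CPM in prolactin, against 4.49, 4.42 and 5.57 CPM in control, with overlap (log2 change 0.022, 95% interval -0.22 to 0.26); 16.8% of its exon bases overlap a locus on the opposite strand. The ETS factors Erg and Fli1 did not overlap between the groups, with log2 changes of 0.075 (95% interval -0.067 to 0.22) and 0.17 (95% interval -0.041 to 0.39). The difference between Sox18 and Sox17 was not tested.

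To show how unequal the changes were, each gene was set against the mean log2 CPM of 7 core endothelial genes (Pecam1, Cdh5, Kdr, Tie1, Tek, Esam and Erg) in the same library. The core stood at 4.67, 4.64 and 4.66 in prolactin and 4.50, 4.40 and 4.53 in control, a difference of 0.18. Relative to it, Vwf was 0.41 higher in prolactin on the log2 scale, Icam2 0.40, Cd34 0.38, Sox18 0.35 and Cd93 0.25, each without overlap. Tek and Tie1, themselves in the core, also lay above it (0.22 and 0.14). Pdgfb (0.13) and Aplnr (0.54) overlapped. Below the core without overlap stood Angpt2 (-0.23) and the core genes Cdh5 (-0.13) and Esam (-0.085). In all, 7 of 37 genes lay above and 3 below without overlap, and of all genes 3.02% and 36.1%. The core is itself higher in prolactin, so the ratio lowers every other gene by construction, and Tek, Tie1, Cdh5 and Esam are set against a mean that contains them. Nothing is read from these shares, and no test was made.

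**Figure D4:**
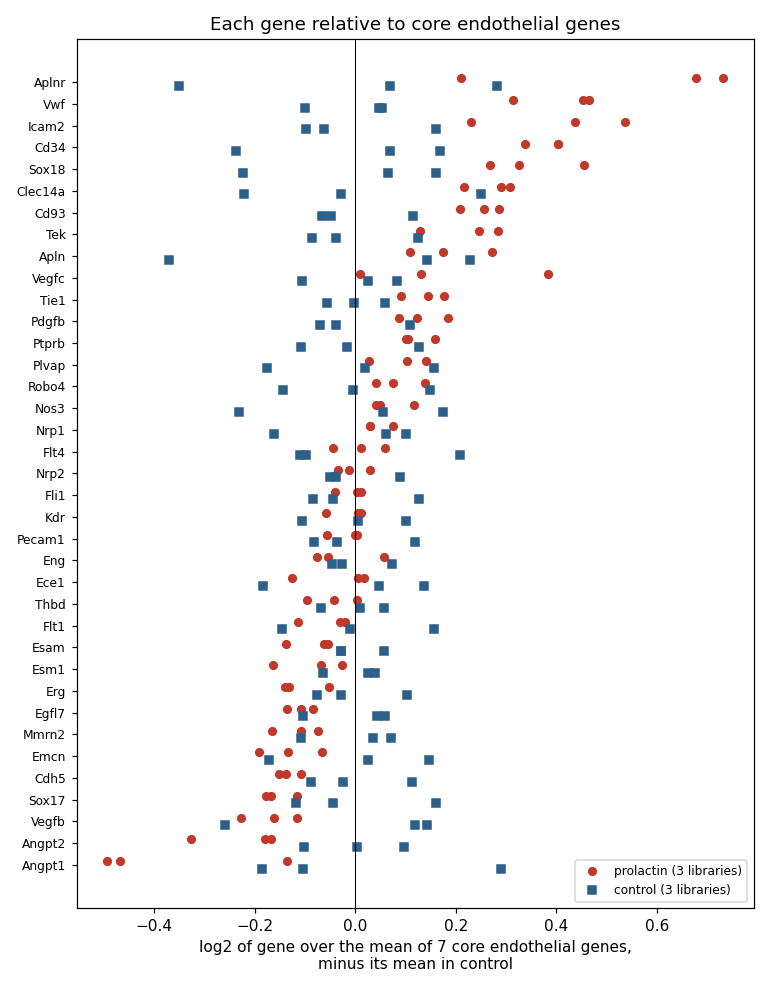
Log2 ratio of each gene to the mean of 7 core endothelial genes in the same library, shown as the distance from its control mean, with prolactin circles above control squares. Vwf, Icam2, Cd34, Sox18, Cd93, Tek and Tie1 have all prolactin points to the right of the control points.

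Further genes of vessel biology were also mostly higher. Of 46 listed and tested, 2 rose and 0 fell in edgeR (at an unadjusted p under 0.05 the counts were 24 and 0, and the authors' deposited table calls 15 higher and 0 lower). The change was positive in 41, with a median of 0.25 on the log2 scale, and 28 lay above control without overlap. Over all genes, 0.652% were called higher, 7.78% were higher at an unadjusted p under 0.05, 50.1% changed upward and 11.3% lay above control. The authors' deposited table calls 4.1% of its genes higher. The same shares are the background of the lists below. For single genes of this list and those below, the fits lacking 1 library are not given. Over all genes, the 156 calls higher became 39 without prolactin replicate 2 and 39 without prolactin replicate 3. Plxnd1, an endothelial semaphorin receptor, had 63.1, 55.7 and 57.5 CPM in prolactin, against 47.2, 44.2 and 45.4 CPM in control (log2 change 0.37, SE 0.0605, adjusted p = 0.0343). Cav1, the coat protein of caveolae, had 7.33, 6.73 and 7.13 CPM in prolactin, against 5.15, 4.77 and 3.92 CPM in control (log2 change 0.61, SE 0.109). Its adjusted p of 0.0472 lay just inside the threshold, and control replicate 3 was its lowest library. Vegfa, the chief vessel growth factor of islets, had 391.7, 406 and 392.3 CPM in prolactin, against 377, 383 and 437 CPM in control, with overlap (log2 change -0.0084, 95% interval -0.17 to 0.15).

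Of 17 stromal and pericyte markers, 2 rose, the collagen genes Col1a1 (adjusted p = 0.0382) and Col1a2 (0.0482, just inside the threshold). At an unadjusted p under 0.05, 9 were higher (7.78% of all genes), and 8 are called higher in the authors' deposited table (4.1% of its genes). All 17 changes were positive (50.1% of all genes), with a median of 0.40. The summed level was 777 to 960.1 CPM in prolactin and 397 to 580.1 CPM in control, lowest in control replicate 3. Of 12 sinusoidal and lymphatic endothelial markers 9 were tested and 1 rose: Stab2, a scavenger receptor of sinusoids, had 8.24, 9.12 and 9.10 CPM in prolactin, against 2.46, 2.07 and 2.28 CPM in control (log2 change 1.96, adjusted p = 5.45e-05). Of the 9 changes, 8 were positive and 1 negative, with a median of 0.23. Of the 9 markers, 3 were higher at an unadjusted p under 0.05, 2 are called higher in the authors' deposited table, and 6 overlapped between the groups. Their summed level was 162 to 164 CPM in prolactin and 137 to 143 CPM in control, most of it from Prox1, a lymphatic transcription factor gene that islet cells also express, with a mean of 106 CPM in prolactin and 97.7 CPM in control (log2 change 0.12, adjusted p = 0.376). The lymphatic chemokine gene Ccl21a had 0 reads in every library.

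Of 5 markers of platelets and megakaryocytes, cells that also carry Vwf and Pecam1, 0 were called by edgeR (1 was higher at an unadjusted p under 0.05, and 1 is called higher in the authors' deposited table). The 1 at an unadjusted p under 0.05 was Pf4, with 2.96, 2.89 and 2.92 CPM in prolactin, against 2.26, 2.01 and 2.32 CPM in control. It did not overlap (log2 change 0.41, adjusted p = 0.124), while the other 4 did. Of the 5 changes, 3 were positive and 2 negative. The summed level of the 5 markers was 6.85 to 7.25 CPM in prolactin and 5.9997 to 6.84 CPM in control, and Gp9 and Ppbp had at most 42 and 64 reads a library. Of 15 macrophage and leukocyte markers 0 were called by edgeR (2 were lower and 0 higher when p was not adjusted, and 1 lower in the authors' deposited table), with a summed level of 126 to 136 CPM in prolactin and 125 to 131 CPM in control. Of the 15 changes, 7 were positive and 8 negative. The part of these cell types in the endothelial result was not tested.

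Of 11 acinar markers 0 were called by edgeR (0 at an unadjusted p under 0.05, and 0 in the authors' deposited table), with a summed level of 876 to 1973 CPM in prolactin and 526 to 3003 CPM in control. All 11 changes were negative, with a median of -0.43 on the log2 scale, and all 11 overlapped between the groups. Of 6 ductal markers 0 were called by edgeR (2 higher at an unadjusted p under 0.05, and 1 in the authors' deposited table), with 444 to 465 CPM in prolactin and 423 to 443 CPM in control. Most of that level came from Krt7, with a mean of 361 CPM in prolactin and 353 CPM in control. All 6 changes were positive, with a median of 0.20, and 2 lay above control without overlap. Of 5 Schwann cell markers 0 were called by edgeR (1 higher at an unadjusted p under 0.05, and 0 in the authors' deposited table), with 63.2 to 66.3 CPM in prolactin and 36.6 to 64.4 CPM in control. All 5 changes were positive, with a median of 0.28, and 1 lay above control without overlap. The upward changes were thus not confined to the vascular and stromal lists. Of 10 islet endocrine markers, 1, the somatostatin gene Sst, fell (log2 change -0.40, adjusted p = 0.0488), where 0.104% of all genes were called lower. Its adjusted p lay just inside the threshold. Over all genes, the 25 calls lower became 1 without prolactin replicate 2 and 2 without prolactin replicate 3. Of the 10, 9 had negative changes (11944 of the 23924 genes tested), and 4 lay below control without overlap (10.4% of all genes). At an unadjusted p under 0.05, 3 of the 10 were lower (6.68% of all genes), and the authors' deposited table calls 2 of the 10 lower (1.6% of its genes). Their mean log2 CPM, centred over the libraries, was -0.090 to -0.075 in prolactin and 0.051 to 0.14 in control, without overlap, while the summed level, 155217 to 158311 CPM in prolactin and 153811 to 172981 CPM in control, overlapped.

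**Figure D5:**
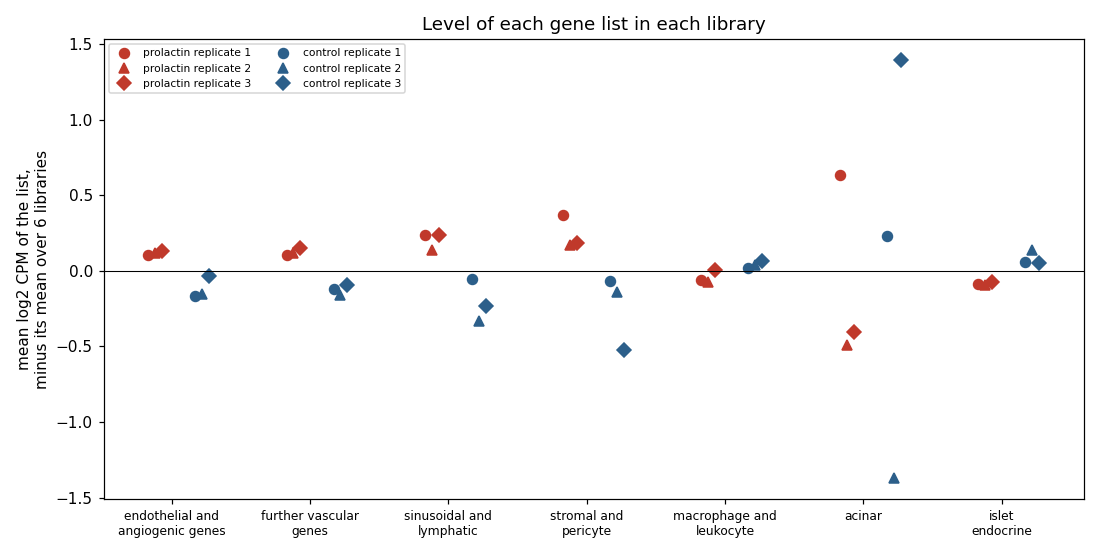
Mean log2 CPM of gene lists in each library, minus the list's mean over the 6 libraries, with prolactin left of control in each list and a symbol per replicate number. The endothelial and angiogenic genes lie between 0.10 and 0.13 in prolactin and between -0.17 and -0.03 in control, and control replicate 3 is the lowest library of the stromal list and the highest of the acinar list.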

How the data were processed

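Polyadenylated RNA of 3 prolactin and 3 control islet libraries (NEBNext Ultra II kit, per the labels' protocols) was counted per gene name with featureCounts 2.0.3 and GENCODE vM10, per the file headers, so the deposited values are whole-number counts of reads. The submitters' processing notes name mm10, SAMtools 1.21, Subread 2.1.0 and DESeq2, and no aligner is given in the sources used. Per the file headers the command sets paired reads but neither strand nor counting of pairs; 53.9% to 56.3% of counts from 1 to 20 were even, so both mates may have been counted. The authors' deposited table holds log2 fold changes, p-values raw and adjusted, the test's score, and a signal, the mean normalised count.

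From the counts, edgeR 4.0.16 (R 4.3.3) was applied after TMM scaling and a filter (minimum count 10, total 15) keeping 23924 genes, as a two-sided quasi-likelihood test with condition as its only term and Benjamini-Hochberg adjustment over all genes. Log2 levels use a prior count of 0.5. The median SE of the log2 change was 0.0672 at a mean of 5 CPM or more. The procedure was tested on simulated data. Members, lists and tests were chosen with earlier results of these data known. Every member is named, with values per library for the called ones, the 14 with the smallest p-values and the 6 highest per length, and others by role. Genes called in other lists are named, and Vegfa, Prox1, Ccl21a, Gp9, Ppbp and Pf4 were added, Prox1 and Pf4 after their values were seen. Vegfd was matched by a synonym. Alternatives were other scalings and filters, DESeq2 1.42.0, limma-voom (limma 3.58.1), a block for replicate numbers, fits lacking 1 library, prolactin replicates 2 and 3 summed, halved counts and, added after seeing the data, edgeR's legacy option off.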

Additional observations from a re-analysis of the deposited data

How the results depend on the processing

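The 37 genes were called higher 4 times by edgeR. The count was 9 without a filter, 13 by DESeq2, 0 with prolactin replicates 2 and 3 summed, and 0 to 14 when a single library was left out. Over all genes, 156 were higher and 25 lower. These counts were 470 and 127 without a filter, 776 and 303 by DESeq2, 42 and 2 with the summed library, and 39 to 342 and 1 to 234 without a single library; 46 were lower with a filter of 1 CPM in 3 libraries. With the replicate block, 8 of the 37 were called (464 genes higher and 134 lower over all genes). The labels do not state that the numbers pair the samples: the deviations of same-numbered libraries correlated at 0.44, 0.29 and -0.052, and prolactin replicate 3 correlated best with control replicate 2 (0.36). In none of the 16 alternatives was any of the 37 called lower. The median log2 change of 0.18 lay between 0.14 and 0.23 without a single library. Signs turned only for uncalled genes near 0. Vegfb was -0.0085 with the summed library, and without a single library it lay between -0.11 and 0.11, Sox17 between -0.038 and 0.14, Cdh5 between -0.036 and 0.13, Emcn between -0.0070 and 0.084, and Angpt2 between -0.075 and 0.0019. The cause of these shifts was not tested. Angpt1 had the fewest reads of the 37, 91 to 228 a library.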
